A study of Mus musculus with 20 samples.

Results

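DNA methylation of non-neuronal nuclei of the hypothalamus was compared between newborn mice (postnatal day 0, P0) and mice of postnatal day 21 (P21). The comparison used 10 of the 20 libraries of the series, 5 from P0 and 5 from P21. They were the columns of the deposited count table labelled P0G and P21G, and no neuronal library entered the test. All animals were male mice of the inbred strain C57BL/6, untreated and with no genetic change named. Non-neurons were the nuclei that remained unstained when sorted for NeuN, a nuclear protein of neurons, and each sample pooled 2 hypothalami of the same age. No marker in these DNA data tells astrocytes, oligodendrocytes, microglia, endothelial cells and other NeuN-negative cells apart. A difference between ages can therefore not be told apart from a different mixture of these cells.

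Methylation of cytosine in CpG dinucleotides is copied at cell division by maintenance methyltransferases and set by de novo methyltransferases, and it is lost when copying fails or when oxidising enzymes act. In the rodent hypothalamus, astrocytes and oligodendrocyte precursors multiply after birth and myelin is formed during the weeks that follow, so the NeuN-negative population changes over this period. CpG-rich promoters are usually free of methylation in all of these cells, whereas isolated CpG sites are usually methylated.

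The assay, methylation-specific amplification and sequencing (MSA-seq), reads methylation at CCCGGG. SmaI cuts this sequence only where it is unmethylated and leaves blunt ends. XmaI then cuts the methylated copies that are left, and adaptors are ligated to the XmaI ends. The stretch between neighbouring CCCGGG sites, here called an interval, gives reads only if its left and right site are both methylated. A higher normalised read count (CPM, scaled by TMM, a factor computed for each library) therefore stands for more methylation of the 2 flanking sites. The scale is relative and gives no percentage of methylated molecules. Intervals are named by their mm9 coordinates as the table gives them, and gene annotation of that build was not used here.

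How the cut sites sit in DNA is shown by 3 promoter windows of 300 bases from RefSeq (build GRCm38.p6, 5′ to 3′ on the strand of the gene), with CCCGGG in capitals. They were chosen after their values were seen. Shank3 codes for a scaffold protein of excitatory synapses, Slc6a11 for a GABA transporter of astrocytes, and Atxn2 for an RNA-binding protein. The windows lie at chr15:89499358-89499657, chr6:114130991-114131290 and chr5:121711359-121711658 of that build, all on the plus strand.
Shank3: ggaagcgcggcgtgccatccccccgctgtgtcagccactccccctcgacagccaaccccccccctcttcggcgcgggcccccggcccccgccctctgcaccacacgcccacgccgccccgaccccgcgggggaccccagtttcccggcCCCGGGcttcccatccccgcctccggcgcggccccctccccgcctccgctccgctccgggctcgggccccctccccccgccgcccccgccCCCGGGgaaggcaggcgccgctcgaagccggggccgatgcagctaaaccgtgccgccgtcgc
Slc6a11: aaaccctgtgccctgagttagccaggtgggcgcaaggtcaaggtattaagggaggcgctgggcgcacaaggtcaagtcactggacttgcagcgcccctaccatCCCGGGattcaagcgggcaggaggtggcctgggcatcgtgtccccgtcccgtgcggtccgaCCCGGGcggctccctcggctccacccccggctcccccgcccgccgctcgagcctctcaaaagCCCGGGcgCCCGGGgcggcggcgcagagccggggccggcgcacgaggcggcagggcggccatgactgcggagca
Atxn2: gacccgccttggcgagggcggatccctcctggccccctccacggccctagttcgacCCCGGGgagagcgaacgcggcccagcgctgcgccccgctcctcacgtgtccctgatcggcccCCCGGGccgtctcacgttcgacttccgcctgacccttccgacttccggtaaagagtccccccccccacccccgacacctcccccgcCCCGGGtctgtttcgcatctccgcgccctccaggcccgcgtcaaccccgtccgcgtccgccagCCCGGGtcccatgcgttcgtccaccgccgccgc
The Shank3 window holds 2 cut sites, at bases 149 and 239 counted from 1 at its 5′ end. The other windows hold 4 sites each, at bases 104, 165, 227 and 235 for Slc6a11 and at bases 57, 119, 205 and 268 for Atxn2.

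In the counts, the intervals between these promoter sites were close to empty at both ages. The 90-bp Shank3 interval (mm9 chr15:89329937-89330027) had 0 reads in each of the 10 libraries. All 3 Atxn2 intervals, of 62, 86 and 63 bp, also had 0 reads in every library. Of the Slc6a11 intervals, the first had 1 read in P0 replicates 1 and 4 and in P21 replicate 5, and the second had none. A total of 0 among 68807200 reads allows up to 3 reads, or 0.0436 CPM over the 10 libraries, by counting error alone. No interval under 60 bp was listed, so the 8-bp stretch between the last sites of the Slc6a11 window is not part of the table.

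The same matching of cut-site spacings placed 112 promoter windows on 166 listed intervals, with 151 genes in all. Of the 32851 RefSeq promoter windows, 4436 (13.5%) hold CCCGGG, and 562 merged windows hold 2 sites far enough apart. None of the 166 intervals had enough reads for the test described further on, and 92 of them (55.4%) had no read in any of the 10 libraries. Among all 22416 listed intervals of the same lengths, 60 to 455 bp, 23.7% were tested and 29.9% had no read. The gap was also present within length classes: 62.3% of promoter intervals against 48.1% of all intervals were without a read up to 100 bp, 64.5% against 38.7% above that and up to 200 bp, and 25.7% against 13.1% above 200 bp. Dnmt3a, which codes for a de novo DNA methyltransferase, was the only gene of the 16 lists other than Shank3 in this set. Its interval of 323 bp had 0 reads in all 10 libraries.

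The few reads in promoter intervals were fewer at P21. Summed over the 166 intervals, P0 libraries held 92, 65, 80, 53 and 41 reads (replicates 1 to 5) and P21 libraries held 19, 21, 12, 19 and 24. The ages did not overlap. As CPM of the library totals this came to 9.63 ± 2.55 at P0 and 2.78 ± 0.715 at P21 (SD, n = 5 each). The 26176 intervals with too few reads for the test held in all 0.691% ± 0.0918 of the reads at P0 and 0.717% ± 0.0963 at P21, ranges that overlap. The interval with the most reads among those in promoter windows was that of Fam189b, at 44 reads in the P0 libraries and 13 in the P21 libraries. Reads of P0 were spread over 71 of the promoter intervals and reads of P21 over 31.

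Depth was alike at both ages, at 5663740 to 8114098 reads per library at P0 and 6078113 to 7913117 at P21 (two-sided exact permutation p = 0.865). Of the 50782 listed intervals, 7424 had no read in these libraries and 24606 had enough reads to be tested, and the latter held 99.3% of the reads. Replicates correlated at 0.97 to 0.978 across intervals at P0 and at 0.964 to 0.982 at P21, and libraries of different ages at 0.911 to 0.934. The first principal component, with 59.4% of the variance, parted the ages. The third, with 6.98%, parted P0 replicates 1 to 3 from P0 replicates 4 and 5. With P0 replicates 1 to 3 alone the test described next gave 11984 calls, and with replicates 4 and 5 alone 10629. The labels name independent samples but no batch. Spread between replicates was wider at P21, with a median coefficient of variation of 11.9% against 9.09% at P0 over 8210 intervals of at least 20 CPM.

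Most of the measured intervals differed between the ages, in both directions. By edgeR's quasi-likelihood test with Benjamini-Hochberg adjustment over the 24606 intervals, 13531 (55.0%) passed an adjusted p of 0.05. Of these, 7068 rose (28.7% of those tested) and 6463 fell (26.3%). The median change was 1.77-fold among rises and 1.64-fold among falls. Changes of 2-fold or more numbered 2502 upward (10.2% of those tested) and 1780 downward (7.23%), those of 4-fold or more 318 and 184, and those of 8-fold or more 42 and 23. Among all tested intervals, 18.5% had all 5 P21 values above all 5 P0 values and 18.9% had all 5 below. Among the calls, 4475 rises and 4583 falls had ages that did not overlap. The balance of directions rested on how libraries were scaled and on leaving out intervals with few reads. With those intervals kept, 7566 rose and 8629 fell among 43358 tested. With library totals alone, 10140 rose and 4224 fell (70.6% of calls rising against 52.2% with TMM), because the median change of all intervals moved up by 0.22 on the log2 scale. Directions below are relative to the TMM scale.

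**Figure D1:**
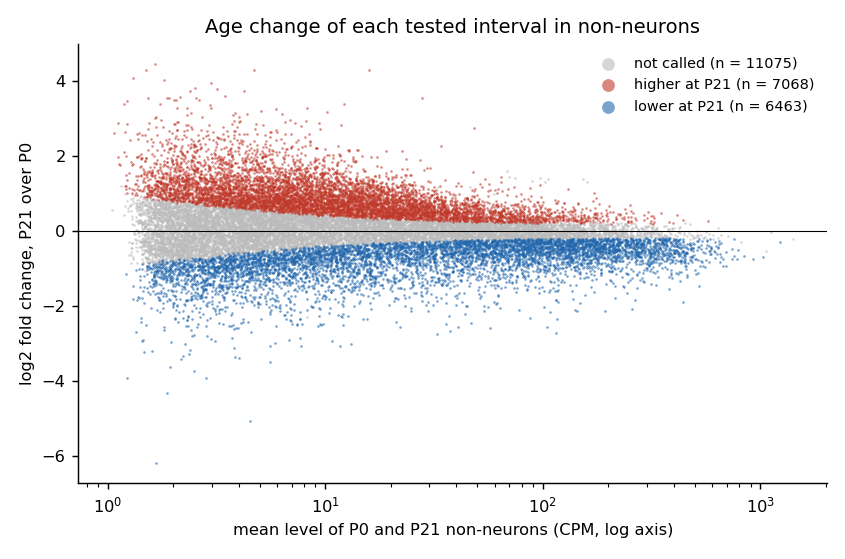
Each point is 1 of the 24606 tested intervals, with the mean level of both ages in CPM on a log axis and the log2 fold change of P21 over P0. Rises (red, 7068) lie mostly at low and middle levels, whereas above 100 CPM most called intervals fall (blue, 6463).

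Rises were led by an interval close to empty at birth. The rule for naming took the 12 called intervals with the largest fold change in each direction among those with ages that did not overlap and an average level above the median interval. At chr9:32351428-32352485 the P0 libraries held 1.1, 0.825, 2.23, 1.42 and 2.04 CPM and the P21 libraries 24.7, 39.9, 30.7, 27.5 and 27.7. Even the highest P0 library stood below the lowest P21 library by more than 10-fold. The means were 1.52 ± 0.599 and 30.1 ± 5.87 CPM (SD, n = 5), so the log2 ratio was 4.28 ± 0.215 (SE) with an edgeR adjusted p of 2.36e-17. At chr8:87230622-87231875 the levels were 4.72, 2.81, 4.04, 5.69 and 4.63 CPM at P0 and 40.6, 70.0, 50.3, 48.8 and 46.8 at P21, an 11.7-fold rise. All P21 libraries were high, and replicate 2 was the highest.

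Next in size was chr13:53330353-53331276, which rose from 2.1 ± 0.838 to 22.2 ± 4.61 CPM, and chr4:41643118-41643798, which rose from 2.91 ± 0.857 to 20.6 ± 4.16 CPM (SD, n = 5). The fifth and sixth intervals touch each other on chromosome 2 and share the cut site at 105521638. The first of this pair, chr2:105520789-105521638, held 14.6, 12.5, 13.9, 9.65 and 12 CPM at P0 and 73.6, 74.9, 96.9, 84.8 and 90.8 at P21. Its neighbour, chr2:105521638-105522213, held 10.7, 12.5, 12.2, 10.4 and 12.4 CPM at P0 and 56.8, 49.9, 60.2, 58.6 and 55.4 at P21. Both were moderately covered at birth and separated the ages by a wide margin, at 6.69-fold and 4.81-fold. The other 6 rises ran from 4.76-fold at chr4:144857106-144859720 to 4.4-fold at chr9:7732686-7734102, with P21 means of 19 to 23.1 CPM. They had no P0 value above 7.59 CPM.

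Falls were led by chr6:146449480-146450213. Its P0 libraries held 24.1, 19.5, 16.1, 22.3 and 22.0 CPM and its P21 libraries 4.03, 1.88, 2.79, 2.14 and 1.45. The highest P21 library stood well below the lowest P0 library, and the log2 fold change was -3.08 ± 0.213 (SE; edgeR adjusted p = 8.78e-14). At chr8:107821673-107822458 the level fell from 23.3 ± 5.37 to 2.9 ± 0.795 CPM, and at chr8:113885105-113885740 from 56.8 ± 5.15 to 8.46 ± 1.13 CPM (SD, n = 5).

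Several of the falling intervals were among the better covered ones at birth. At chr2:166455562-166456511 the P0 libraries held 169, 202, 184, 230 and 217 CPM and the P21 libraries 34.1, 23.7, 35.4, 26.1 and 30.4, a 6.69-fold fall. At chr11:119048400-119048900 the values were 179, 167, 168, 205 and 179 CPM at P0 and 29.1, 27.3, 32.1, 31.6 and 29.9 at P21, with a spread among replicates that was small beside the 5.98-fold fall. This interval had the smallest adjusted p of the 24 (3.74e-20, edgeR). At chr2:127329897-127330707 the level fell from 195 ± 24.1 to 37.9 ± 6.01 CPM. The other 6 falls ran from 6.08-fold at chr13:51622074-51622806 to 5.54-fold at chr8:14994572-14995288. Of the 12 falls, 11 were 400 to 1200 bp long, and of the 12 rises, 7 were. Among all 24606 tested intervals, 4333 were 400 to 800 bp and 3624 were 800 to 1200 bp long. These classes held 2345 and 1509 of the 6463 falls and 494 and 692 of the 7068 rises. Their median levels were 61.9 and 41.8 CPM, against 10.9 CPM for all tested intervals, so the naming rule's level requirement favoured these lengths.

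**Figure D2:**
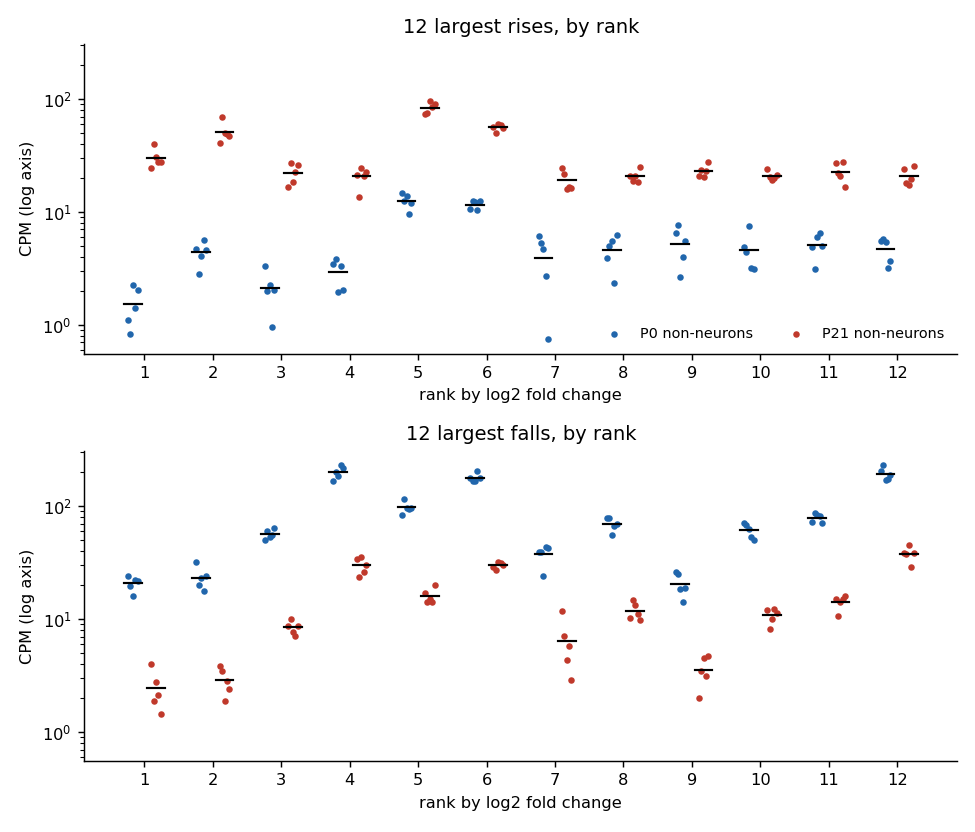
Levels of the 12 largest rises (top) and the 12 largest falls (bottom) in each of the 5 P0 (blue) and 5 P21 (red) libraries, in CPM on a log axis, with black bars at the means and intervals ranked by fold change. The ages do not overlap in any of the 24, which the rule required. The first rise goes from a mean of 1.52 to 30.1 CPM and the first fall from 20.8 to 2.46 CPM.

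A small set of intervals passed between near absence and clear presence. This set was defined after the values were seen, as a mean below 2 CPM at one age and at least 10 CPM at the other. It held 15 intervals that rose and 6 that fell. All 21 had passed the test, which adds no support because the same counts defined the set. The risers had a median length of 1272 bp and reached 10.2 to 30.1 CPM, and the fallers had a median length of 581 bp and began at 10.1 to 13.9 CPM. In neurons 10 of the 15 risers also stood at 10 CPM or more at P21. Of the 6 fallers, 0 stood that high in neurons at P21, and 3 did at P0. How many of all tested intervals stood that high in neurons was not counted. The interaction of age and cell type passed for none of the fallers (edgeR adjusted p = 0.0637 to 0.748). Among the risers it passed at chr6:57676936-57677893 (edgeR adjusted p = 0.0222) and at chr9:20839609-20840797. At chr9:20839609-20840797 non-neurons rose from 1.09 ± 0.551 to 10.7 ± 2.43 CPM, while neurons rose from 2.47 ± 0.422 to 97.0 ± 7.19 CPM (SD, n = 5; edgeR adjusted p of the difference between the age changes = 2.13e-05). The largest of the falls in this set by starting level was chr17:35068377-35069066, which went from 13.9 ± 3.47 to 1.63 ± 0.636 CPM. In neurons it went from 15.3 ± 2.5 to 0.851 ± 0.494 CPM (SD, n = 5).

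Among the intervals with the most reads, changes were small and mostly downward. The 5 most abundant rises changed by 1.15-fold to 1.34-fold. The interval chr7:144221293-144221686 rose from 352 ± 21.2 to 472 ± 47.0 CPM (SD, n = 5; edgeR adjusted p = 6.73e-05), with P0 values of 330 to 378 CPM and P21 values of 407 to 522. The other 4 rises each lost their call in at least 1 alternative. At chr8:124829969-124830447 the ages overlapped (331 to 427 CPM against 358 to 454; edgeR adjusted p = 0.0467), and the call was lost in 14 of 23 alternatives. The 5 most abundant falls changed by 1.22-fold to 1.69-fold. At chr5:114187876-114188745 the P0 libraries held 1290, 1310, 1300, 1250 and 1170 CPM and the P21 libraries 673, 704, 894, 794 and 832, without overlap. The interval with the highest level among the calls, chr2:92812929-92813782, went from 1350 ± 61.8 to 1100 ± 155 CPM with overlapping ages (edgeR adjusted p = 0.00475). Once each library's length trend was taken out, its log2 difference was 0.00349 and it was not called.

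Other well covered intervals stayed level on the TMM scale. The 5 examined were picked for the smallest log2 change among tested intervals with a mean level of at least 114 CPM. Their lack of change and their high adjusted p follow from that choice. The interval chr8:36480646-36481205 held 172, 172, 170, 183 and 165 CPM at P0 and 191, 166, 162, 178 and 163 at P21 (edgeR adjusted p = 0.985). At chr6:118209867-118211183 the P0 values were 126 to 148 CPM and the P21 values 115 to 140. This too depends on the scale. With library totals alone both were called as rises, by 0.22 on the log2 scale (edgeR adjusted p = 0.0112 and 0.0173). After each library's length trend was taken out, chr8:36480646-36481205 was called as a rise of 0.39 (edgeR adjusted p = 6.23e-06).

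Neurons sorted from hypothalami of the same ages had libraries of their own. Their age change was tested by edgeR within a fit of all 20 libraries, not of the neuronal libraries alone. All 12 of the largest rises in non-neurons were also called as rises in neurons. In classes by the number of other listed intervals within 50 kb, 19.8% to 39.4% of the tested intervals rose in neurons. The interaction of age and cell type (edgeR over 20 libraries, adjusted p under 0.05) passed for 14.1% of 26679 intervals. Of the 12 rises, 2 passed it and so differed in the size of the change. One was chr13:53330353-53331276, which rose to 46.1 ± 3.54 CPM in neurons from 1.12 ± 0.624. The other was chr2:105520789-105521638, where neurons held 1.97 ± 0.633 CPM at P0 and 7.72 ± 1.55 at P21, far below the 84.2 ± 10 CPM of P21 non-neurons. Its touching neighbour rose alike in both cell types (interaction 0.03 on the log2 scale, adjusted p = 0.954).

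All 12 of the largest falls in non-neurons were also called in neurons, 11 of them as falls. In the classes by crowding, 18.2% to 39.6% of the tested intervals fell in neurons. At chr11:119048400-119048900, for example, neurons fell from 218 ± 11.6 to 63.8 ± 6.38 CPM. Of the 12 falls, 10 passed the interaction test and so differed in the size or direction of the change. In all 10 the change in non-neurons was the more downward one. The leading fall, chr6:146449480-146450213, went in the opposite direction in neurons, from 27.4 ± 4.16 to 36.8 ± 4.01 CPM (SD, n = 5; edgeR adjusted p = 0.00645). The age changes differed by a log2 value of 3.51 ± 0.23 (SE), with an edgeR adjusted p of 2.41e-15. At P0 the levels of the cell types there were close, and at P21 non-neurons stood at 2.46 ± 1.0 CPM. At chr8:113885105-113885740 neurons went from 80.7 ± 5.63 to 63.7 ± 2.5 CPM where non-neurons fell 6.7-fold, and at chr2:127329897-127330707 from 358 ± 38.9 to 273 ± 7.56 CPM where non-neurons fell 5.13-fold. At chr15:79781325-79781893, in contrast, neurons fell from 65.5 ± 8.18 to 10.2 ± 1.58 CPM, much like non-neurons (69.8 ± 9.36 to 11.8 ± 2.19 CPM), and the changes did not differ by this test (interaction -0.12 ± 0.179, SE; edgeR adjusted p = 0.732). These 12 were chosen for large falls in non-neurons, so a larger fall there than in neurons is partly built into the choice. Over all calls, the interaction passed for 678 of the 7068 rises (9.59%) and for 1576 of the 6463 falls (24.4%). Of the 3772 intervals that passed, the neuronal change was the higher one in 77.1%, a share that came to 57.0% with the length trend removed, 56.2% with upper-quartile factors and 69.9% with library totals alone.

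Changes of touching intervals went together. Touching intervals share the CCCGGG site between them, so a change at that site alters both. Of 2109 touching pairs in which both were called, 83.8% changed in the same direction, 720 pairs upward and 1047 downward. If directions were unrelated, the share of rises among these pairs would give 51.2%. Pairs that lie under 1 kb apart share no site, and of 83 such pairs 77.1% agreed in direction. The share was 63.4% of 306 pairs at 1 to 5 kb, 57.6% of 1084 pairs at 5 to 20 kb and 54.9% of 1152 pairs at 20 to 50 kb. Unrelated directions would give 50% to 51.4% in the classes up to 50 kb. From 50 to 100 kb the share was 57.8%, against 51.1% if unrelated. Above 100 kb it was 59.6%, where rises made up 68.5% of the paired intervals and unrelated directions would already give 56.8%. In that class 997 pairs rose together and 234 fell together.

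**Figure D3:**
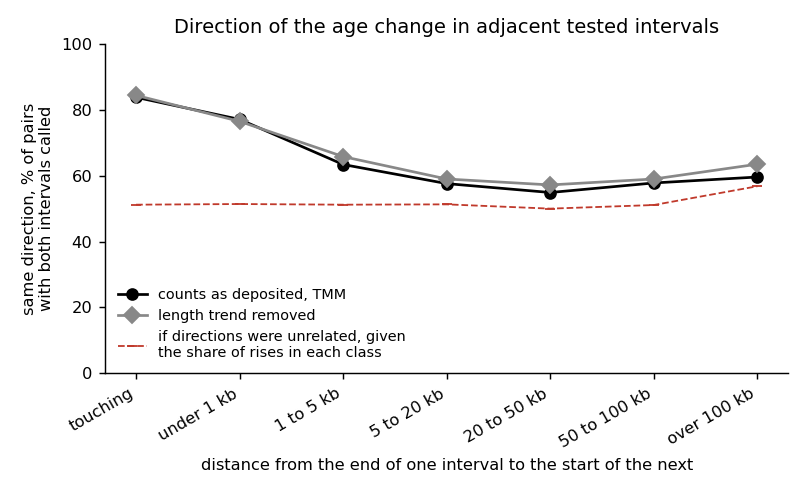
Share of adjacent tested intervals with the same direction of change, in percent of the pairs in which both were called, by the distance between them. Black points are the TMM-scaled counts, grey diamonds the same after each library's length trend was taken out, and the dashed line is the share for the TMM-scaled counts if directions were unrelated, given the share of rises in each class (51.2% for touching pairs, 56.8% above 100 kb). Touching pairs reach 83.8% and pairs 20 to 50 kb apart 54.9%.

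Unbroken runs of touching intervals that all changed one way were counted next. Runs of 3 or more numbered 63 upward and 151 downward, and runs of 4 or more 10 upward and 24 downward. In touching pairs with both called, 42.2% of the intervals rose. How many runs each way this share alone would give was not computed. The longest downward run held 8 intervals at chr7:51787803-51796844, over 9041 bp. Summed over the run, the P0 libraries held 2510, 2550, 2870, 2490 and 2400 CPM and the P21 libraries 1430, 1400, 1680, 1520 and 1670, without overlap. Within it, chr7:51795844-51796633 fell from 698 ± 61.1 to 360 ± 36.9 CPM, and the last interval, chr7:51796633-51796844, from 67.5 ± 10.4 to 53.9 ± 9.4 CPM with overlapping ages. All 8 intervals also fell in neurons, and the interaction passed for none of them. With library totals alone, 5 of the 8 were called as falls.

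At chr10:79874590-79884056 a run of 6 falling intervals went from 585, 657, 584, 552 and 517 CPM at P0 to 222, 289, 304, 246 and 258 at P21. In each of the 6 the ages did not overlap. Its largest member by reads, chr10:79878651-79879645, fell from 377 ± 30.2 to 167 ± 22.1 CPM. A run of 6 at chr17:25510790-25516038 fell from 1150 ± 68 to 632 ± 59.8 CPM in all (SD, n = 5). Shorter runs of 5 lay at chr7:150644970-150648121, from 143 ± 8.39 to 96.2 ± 11 CPM, and at chr5:115056982-115064232, from 268 ± 10.9 to 147 ± 9.06 CPM. Of the run at chr7:150644970-150648121, 3 of 5 intervals were called with library totals alone, with a stricter filter (20 or more reads in 5 or more libraries), with the length trend removed, without P0 replicate 3 and without P21 replicate 2. With P0 replicates 4 and 5 alone, 2 of its 5 were called.

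Among upward runs, chr8:94325966-94330401 started close to empty along its whole 4435 bp. The summed P0 levels were 3.62, 3.63, 4.32, 1.9 and 0.741 CPM and the summed P21 levels 21.1, 22.1, 18.8, 20.2 and 15.7. All 4 intervals separated the ages without overlap. With the same stricter filter, 2 of the 4 were called. The last one, chr8:94329352-94330401, rose from 0.433 ± 0.249 to 8.98 ± 2.72 CPM, so the log2 ratio was 4.28 ± 0.346 (SE) with an edgeR adjusted p of 3.99e-12. Neurons stayed low over the same stretch, at 2.14 CPM at P0 and 4.62 at P21 in all, and 1 of the 4 intervals passed the interaction test. At chr9:34831257-34836039 the 4 intervals went from 60.2, 47.4, 39.0, 45.1 and 44.8 CPM to 95.9, 117, 105, 102 and 108, and all 4 also rose in neurons. Upward runs of 4 on chromosome 11 lay at chr11:113667215-113670640 (68.1 ± 9.95 to 138 ± 6.52 CPM) and at chr11:117094556-117099850 (256 ± 20.2 to 432 ± 38.3 CPM). The longest upward run, 5 intervals at chr6:60140218-60143636, went from 46.1 ± 9.58 to 79.3 ± 15.4 CPM. In 4 of its 5 intervals the ages overlapped.

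**Figure D4:**
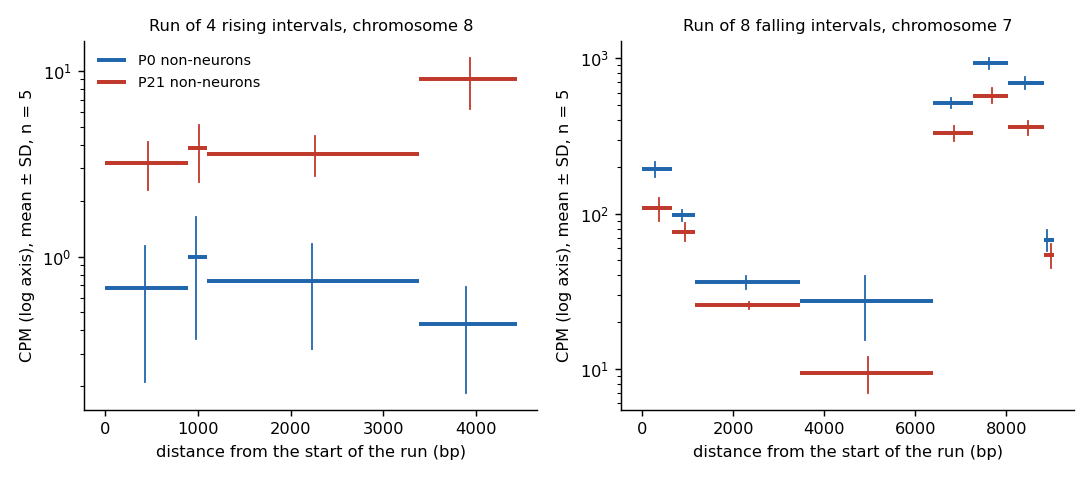
Levels along a run of 4 rising intervals on chromosome 8 (left) and of 8 falling intervals on chromosome 7 (right), in CPM on log axes, against the distance in bp from the start of the run. Horizontal bars span each interval at its mean at P0 (blue) and P21 (red), and vertical lines are ± 1 SD (n = 5). The rising run goes from 2.84 to 19.6 CPM in all and the falling run from 2560 to 1540 CPM.

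The direction of change varied with how crowded the cut sites were. For each tested interval, the other listed intervals with a midpoint within 50 kb were counted. Of 2726 intervals with none, 43.2% rose and 16.2% fell, against 28.7% and 26.3% of all tested intervals. With each step in crowding the share of rises went down and that of falls went up. Intervals with 1 to 2 others had 37.4% rises and 19.1% falls, those with 3 to 5 had 29.2% and 25.4%, those with 6 to 10 had 20.3% and 31.9%, and those with 11 to 20 had 16.1% and 37.6%. Of 389 intervals with more than 20 others, 13.6% rose and 42.2% fell. These intervals are not independent of their neighbours, so the shares are given as a description.

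The same order of the 2 end classes was present within each band of mean level. From 5 to 20 CPM, 59.4% of isolated intervals rose and 9.27% fell, and of those with more than 20 others 13.2% rose and 38% fell. Above 100 CPM, 11.2% of isolated intervals rose and 53.9% fell, against 6.0% and 72.0% of those with more than 20 others. With library totals alone every class moved toward rises (56.5% rises and 9.72% falls among isolated intervals, 26.0% and 30.1% in the most crowded class), and the order stayed. Measured per library, the share of reads in intervals with at most 2 others went from 29.8% ± 0.166 at P0 to 32.35% ± 0.419 at P21 (SD, n = 5; two-sided exact permutation p = 0.00794, the smallest this design gives; adjusted p = 0.0115 over 13 library measures). The share in intervals with more than 10 others went from 19.86% ± 0.1 to 18.0% ± 0.262 (exact permutation p = 0.00794, adjusted p = 0.0115). No P0 library overlapped a P21 library in either measure. Both shares rest on the same reads as the calls and were not among the library measures planned. In neurons, 39.4% of isolated intervals rose with age and 18.2% fell, against 19.8% and 39.6% in the most crowded class, and whether the cell types differ in this was not tested.

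Interval length also moved with direction. At 400 to 800 bp 11.4% rose and 54.1% fell, whereas at 1600 to 2000 bp 50.2% rose and 11.6% fell. Reads shifted accordingly, since intervals of 400 to 800 bp held 46.79% ± 1.45 of a P0 library and 41.93% ± 2.01 of a P21 library (SD, n = 5; exact permutation p = 0.00794, adjusted p = 0.0115). Amplification by PCR depends on length, and a length trend of a library cannot be told apart here from methylation that differs by length. With the trend of each library removed, the classes came close to each other, at 33.6% rises and 30.9% falls for 400 to 800 bp and 33.2% and 24.7% for 1600 to 2000 bp. Of the 13531 calls, 10404 (76.9%) kept their direction and call under that correction and 34 turned to the opposite direction. The gradient with crowding remained, at 43.9% rises and 12.5% falls among isolated intervals and 18.5% and 43.7% in the most crowded class.

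**Figure D5:**
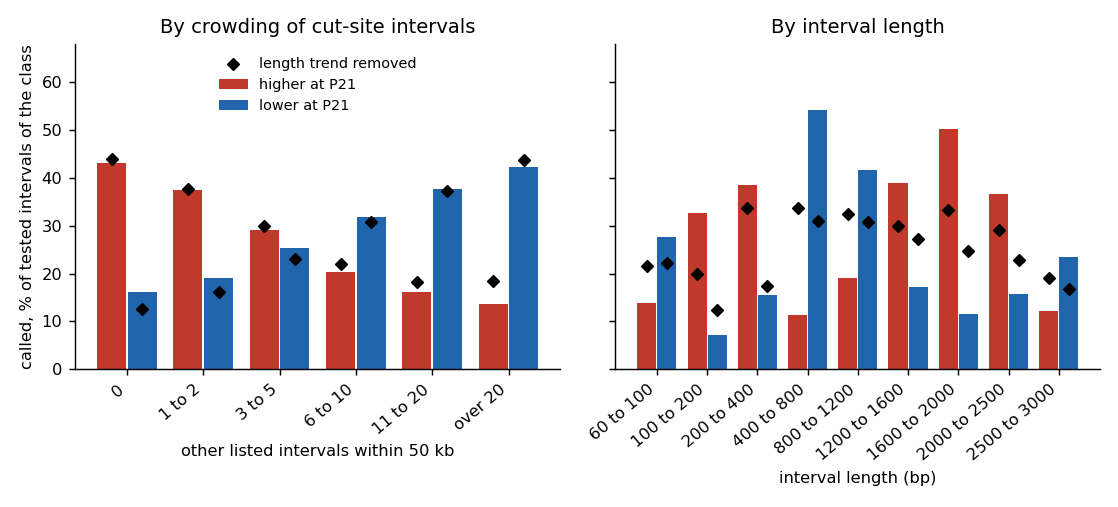
Share of tested intervals called higher (red) or lower (blue) at P21, in percent of each class, by the number of other listed intervals within 50 kb (left) and by interval length in bp (right). Black diamonds give the shares after each library's length trend was taken out. On the left they stay close to the bars (43.2% and 43.9% rises in the isolated class), and on the right they lie far from them at 400 to 800 bp (54.1% and 30.9% falls).

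Levels followed the same line. Of 1120 intervals above 200 CPM, 4.02% rose and 71.0% fell, and with the length trend removed 24.7% and 42.9%. From 10 to 20 CPM 40.3% rose and 21.7% fell. Reads also became less concentrated, since the 1% of intervals with the most reads held 22.56% ± 0.544 of a P0 library and 19.31% ± 1.07 of a P21 library (exact permutation p = 0.00794, adjusted p = 0.0115). At the other end, fewer intervals had any read at P21, 34641 to 35224 against 35668 to 37272 at P0 (exact permutation p = 0.00794, adjusted p = 0.0115). That difference was also present with all libraries thinned to a common depth, at 33935 to 34954 against 35038 to 36699.

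Chromosomes differed in their balance. On the X chromosome, single in these males, 36.7% of 498 tested intervals rose and 13.3% fell. Its share of reads went from 0.877% ± 0.0263 to 1.0% ± 0.0573 (SD, n = 5; exact permutation p = 0.00794, adjusted p = 0.0115), from 0.836% to 0.903% among P0 libraries and from 0.936% to 1.07% among P21 libraries. Tested X intervals had a median level of 5.58 CPM and a median length of 703 bp, against 10.9 CPM and 1165 bp over all tested intervals. Of all tested intervals at 5 to 10 CPM, 37.7% rose and 19.1% fell. Whether the X chromosome differs beyond its level and lengths was not tested. Chromosomes 3, 1 and 14 also leaned upward, with 35.9%, 35.4% and 35.3% rises against 19.9%, 22.1% and 21.4% falls. Chromosome 11 leaned the other way, with 23.0% rises and 30.5% falls, as did chromosomes 7 (24.0% and 30.8%) and 17 (26.2% and 30.7%). With library totals alone, rises outnumbered falls on each of these chromosomes, with 34.5% rises and 20.3% falls on chromosome 11 and 52.0% and 8.23% on the X chromosome. On the Y chromosome 8 intervals were tested.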

How the data were processed

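Methylation was measured by MSA-seq in 10 non-neuronal libraries, 5 per age. Values are the authors' read counts for each interval, as their whole numbers and unequal totals show. Per the submitters' processing notes, the tools were Bowtie 0.12.9, FastQC 0.10.1 and cutadapt, on build mm9. How reads were counted, and reads that match several places handled, remained not given in the sources used here.

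Low intervals were removed by filterByExpr (edgeR 4.0.16, minimum count 10 and total 15). The rest were scaled by TMM and tested with the robust quasi-likelihood fit (R 4.3.3). CPM use TMM-scaled library sizes. Standard errors are the log2 change over the square root of F. The interaction and all neuronal values come from a fit of 20 libraries, where non-neuronal levels differ by a median of 2.63% (P0) and 2.7% (P21). Library measures were compared by exact permutation tests. The shares by crowding and of the X chromosome were not among the measures planned. In simulated data for the 24606 intervals of this comparison, 67 were changed by 1.5-fold, 67 by 2-fold and 66 by 4-fold. Of these, 47.8%, 80.6% and 95.5% were recovered, and 15 unchanged intervals were called. The changed share was far below the 55.0% called in the real data, so the simulation does not measure recovery there.

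Named intervals were, in each direction, the 12 largest non-overlapping calls above the median level, the 5 longest runs and the 5 calls of highest level. Added to these were the 5 well covered intervals with the smallest change. The members, rule and lists were chosen with earlier results of these data known. Promoter windows were placed by CCCGGG spacings alone where 1 place on the chromosome fitted and order held. Gene lists, genomic context and other genes need mm9 annotation and are not analysed here. Reads carry no molecular identifiers, so the limit for 0 reads covers counting error only. Figures used matplotlib 3.10.9. The alternatives were 3 other scalings, 2 filters, DESeq2 1.42.0, limma-voom (limma 3.58.1), all 20 libraries, a replicate block, leaving out each library, removal of length trends (lowess span 0.2), thinning and an adjusted p of 0.01.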

Additional observations from a re-analysis of the deposited data

Results flagged for a closer look

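Within groups of 5 libraries, 7 values stood apart from the other 4 by more than 0.71 of the group's range, out of 104 groups examined, and chance alone gives about 1 in 20. P0 replicate 3 was the lowest P0 library at chr5:109980032-109982560, with 24.2 CPM. P21 replicate 2 was the lowest P21 library at chr8:124829969-124830447 (358 CPM), chr2:30898726-30899208 (522 CPM) and chr17:38184041-38184673 (159 CPM). It also held 38.44% of its reads in intervals of 400 to 800 bp, below the other 4. P21 replicate 1 was the lowest at chr6:118209867-118211183, with 115 CPM, and had reads in 35224 intervals, above the other 4. Values from the same library are not independent. Without P21 replicate 2 the test gave 13505 calls.

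At 13 named intervals the age change in neurons differed from that in non-neurons by the interaction test (edgeR adjusted p from 1.29e-16 to 0.0404). The neuronal log2 change was higher by 3.51 at chr6:146449480-146450213, 2.4 at chr8:113885105-113885740, 1.97 at chr2:127329897-127330707, 1.96 at chr13:53330353-53331276, 1.93 at chr8:14994572-14995288, 1.66 at chr2:166455562-166456511, 1.45 at chr17:47660548-47661191 and 1.26 at chr11:98579321-98579866. It was higher by 0.839 at chr8:107821673-107822458, 0.806 at chr11:119048400-119048900 and 0.795 at chr13:51622074-51622806. At 2 intervals the difference was negative, with -0.784 at chr2:105520789-105521638 and -0.599 at chr2:30898726-30899208, where the level went from 1030 ± 143 to 648 ± 72.9 CPM in non-neurons and from 880 ± 100 to 365 ± 52.2 CPM in neurons.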

How the results depend on the processing

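The 13531 calls ranged from 12694 to 13507 when each library was left out in turn, with 6499 to 6984 rises, 6157 to 6681 falls, 2526 to 2769 rises of 2-fold or more and 1766 to 2056 such falls. With library totals alone the falls numbered 4224, the rises of 2-fold or more 3960 and such falls 1068. Without a filter on low counts falls outnumbered rises, at 8629 against 7566, and at 4140 against 3230 for changes of 2-fold or more. These were among 43358 tested intervals, of which 18752 with few reads were added. The replicate block gave 13767 calls and 4359 interactions. Deviations of same-numbered P0 and P21 non-neuronal libraries correlated at -0.103, 0.166, -0.0391, 0.0537 and 0.00969. Whether neuronal and non-neuronal libraries of the same age and number share a pool was not examined. The main interaction fit treats them as independent. Other counts over all intervals stayed within 1.5 times the main one, at 10590 calls with an adjusted p under 0.01 and 5490 interactions with the length trend removed.

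Of 897 values of named intervals under alternatives, 858 kept direction and side of the threshold. Counting 6 values that also changed sign, 30 lost the call and 9 gained one. The sign changes that crossed the threshold were 0.222 at chr4:148919407-148919863, 0.222 at chr6:118209867-118211183 and 0.223 at chr8:36480646-36481205 with library totals alone. With the length trend removed they were 0.00349 at chr2:92812929-92813782, 0.294 at chr4:148919407-148919863 and 0.392 at chr8:36480646-36481205. All are log2 differences near 0 on the TMM scale except chr2:92812929-92813782 (-0.29). The call was kept in all alternatives at 29 of 34 called named intervals, and in 2 of 10 runs by every interval. Restricting P0 to replicates 1 to 3 or 4 and 5 was chosen after seeing the data. In the simulation 1.5-fold changes were the least often recovered, at 47.8%. It changed far fewer intervals than were called here, so it does not measure recovery in this comparison. It does not tell how certain a called change is.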
